A study of Homo sapiens with 4 samples.

Results

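Forkhead (FOX) genes encode transcription factors that share a winged-helix DNA-binding domain. All protein-coding genes of the GENCODE annotation on hg19 whose symbol is FOX, 1 letter from A to S and a number were taken, which gave 45 genes of 20098 protein-coding genes on chromosomes 1 to 22 and X. No measured value entered that choice. Another 7 symbols with a further suffix (FOXD4L1 to FOXD4L6 and FOXO3B) are copies of forkhead genes and were left out of the 45.

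The cells were SK-N-MC, a long-established line from an Ewing sarcoma, grown without any treatment named in the labels. Their chromatin was cut by micrococcal nuclease and sonicated, and proteins were located by ChIP-seq. The immunoprecipitated targets were FLI1, SSRP1 (a subunit of the histone chaperone FACT, whose inhibition the series concerns) and histone H3 acetylated at lysine 27 (H3K27ac). Each target had 1 library from this 1 line, beside 1 input library, so there was no replicate check and no test between conditions. In Ewing sarcoma cells an antibody to FLI1 detects the fusion of EWSR1 with FLI1 where its epitope lies in the part of FLI1 that the fusion keeps.

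Forkhead factors bind a short core, TGTTTAC, as monomers. Some, such as FOXA proteins, open closed chromatin during development, while FOXO proteins are held in the cytoplasm when insulin or IGF1 activates AKT, and FOXM1 drives genes of mitosis. In Ewing sarcoma, FOXO1 has been described as a gene held down by the fusion and FOXM1 as one raised in the tumour. Occupancy alone does not show whether a gene is on or off, and no expression was measured in these libraries.

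In the lists were 36305 FLI1 peaks (median width 283 bp), 19855 SSRP1 peaks (403 bp) and 37195 H3K27ac peaks (653 bp). The lists carry no height or depth, so a value below is a position, a width or a count. Of 8 Ewing sarcoma marker genes (such as NR0B1, NKX2-2 and STEAP1), SSRP1 and H3K27ac lay at the start site of all 8 and FLI1 at 7, CD99 being the exception. Of 12 markers of other cell types, H3K27ac lay at 1 (HAND2), SSRP1 at 2 and FLI1 at 3, and 8, such as ALB, CD3D, KRT5 and PTPRC, had no peak.

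The sequences under the FLI1 peaks of the forkhead genes show which kind of site each peak holds. The fusion is known for binding runs of GGAA as well as single ETS sites. Searched for were a run of at least 4 GGAA (or TTCC on the other strand), an ETS core (CCGGAAG or CCGGAAA, both strands), and the forkhead core TGTTTAC (both strands). Within 50 kb of the forkhead genes lay 145 FLI1 peaks, and 2 of them (1.38%) held a GGAA run, against 2.31% of the 29456 FLI1 peaks within 50 kb of any protein-coding gene. The longer run, of 13 repeats, lay between genes just upstream of FOXK1, at chr7:4720253-4720304 in hg19. The other, of 7 repeats at chr6:41611287-41611314, lay within 50 kb of FOXP4 but in intron 2 of its neighbour MDFI. Both are printed on the plus strand of GRCh37 with the run in capitals and 30 bases on each side.

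FOXK1 upstream: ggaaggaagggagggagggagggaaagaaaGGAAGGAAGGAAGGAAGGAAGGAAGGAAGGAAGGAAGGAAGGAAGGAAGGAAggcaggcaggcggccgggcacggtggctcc
MDFI intron 2: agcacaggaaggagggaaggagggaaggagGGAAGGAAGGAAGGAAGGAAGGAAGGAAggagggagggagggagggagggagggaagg

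The FOXK1 run sat in a FLI1 peak of 489 bp that ended 1289 bp upstream of the start site and was shared with H3K27ac but not with SSRP1. The MDFI run sat in a FLI1 peak of 920 bp shared with both, 96072 bp from the start site of FOXP4 and 4243 bp from that of MDFI. A reach of 100 kb added 1 more run among 225 peaks.

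ETS cores lay in 16 of the 145 FLI1 peaks (11.0%, against 9.41% near all genes) and forkhead cores in 4 (2.76%, against 2.36%). Of the 24 FLI1 peaks at the start sites of forkhead genes, 2 (8.33%) held an ETS core, against 24.8% of the 6616 FLI1 peaks at any start site, a share that lies inside the interval of the 2 of 24. Intervals are 95% exact binomial (Clopper-Pearson), here and throughout, and cover counting error only. These 2 peaks belonged to FOXO6, with a pair of cores in intron 1, and to FOXD3, with 1 core in its coding exon. Among the cores farther out were those upstream of FOXO3 and upstream of FOXB1, in peaks shared with neither other list. Other peaks with a core farther out were shared with neither, with H3K27ac alone or with both. An example of the last was a 725 bp peak 14017 bp upstream of FOXP4. The 5 sequences below are on the plus strand of GRCh37 with the core in capitals and 25 bases on each side. They start at chr1:41832067 and chr1:41832158 (FOXO6), chr1:63789403 (FOXD3), chr6:108856400 (FOXO3) and chr15:60286454 (FOXB1).

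FOXO6 intron 1, first core: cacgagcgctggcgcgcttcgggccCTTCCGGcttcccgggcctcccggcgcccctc
FOXO6 intron 1, second core: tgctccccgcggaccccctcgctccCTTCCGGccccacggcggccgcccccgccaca
FOXD3 coding exon 1: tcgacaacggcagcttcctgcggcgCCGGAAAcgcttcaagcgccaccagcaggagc
FOXO3 upstream: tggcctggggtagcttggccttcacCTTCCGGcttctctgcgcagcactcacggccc
FOXB1 upstream: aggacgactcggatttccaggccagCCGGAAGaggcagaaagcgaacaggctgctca

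The FLI1 peak of FOXO1 held neither a GGAA run nor an ETS core. It is printed whole (chr13:41239410-41239642, plus strand) because it was the single FLI1 peak at a FOXO1 start site, and its 2 isolated GGAA or TTCC are in capitals.

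FOXO1 intron 1 peak: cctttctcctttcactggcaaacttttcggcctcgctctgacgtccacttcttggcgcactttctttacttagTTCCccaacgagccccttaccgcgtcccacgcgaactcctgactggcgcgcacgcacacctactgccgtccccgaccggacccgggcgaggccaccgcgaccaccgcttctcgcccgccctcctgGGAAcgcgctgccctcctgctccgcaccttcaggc

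Counted at start sites, most forkhead genes carried either all 3 marks (13) or none (19). A gene was said to carry a mark when a peak came within 2.5 kb of any transcription start site (TSS) of its basic transcripts. FLI1 lay at 16 of 45 (35.6%, interval 21.9 to 51.2), against 29.0% of all protein-coding genes. SSRP1 lay at 22 (48.9%, 33.7 to 64.2), against 35.8%. H3K27ac lay at 21 (46.7%, 31.7 to 62.1), against 57.9%. Each of these 3 intervals includes the share of all genes, so no single mark stood apart from the background at this number of genes.

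All 3 marks lay at 13 forkhead genes (28.9%, interval 16.4 to 44.3), against 17.3% of all genes. No mark lay at 19 (42.2%, 27.7 to 57.8), against 34.7%. Acetylation alone lay at FOXH1 and FOXO4 (4.44%, 0.543 to 15.1), against 19.2% of all genes. SSRP1 alone lay at FOXC1, FOXD1 and FOXS1 (6.67%, 1.4 to 18.3, against 2.84%). SSRP1 with H3K27ac lay at 5 (11.1%, against 14.3%), namely FOXF2, FOXJ2, FOXK2, FOXM1 and FOXN4. FOXJ1 carried FLI1 with H3K27ac, FOXD3 FLI1 with SSRP1, and FOXL2 FLI1 alone.

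Other families of developmental regulators were counted the same way. The 39 HOX genes carried more of each mark, with FLI1 at 59.0%, SSRP1 at 71.8%, H3K27ac at 61.5% and all 3 at 38.5%. The 19 SOX genes carried all 3 at 21.1% and the 28 ETS genes at 28.6%. At start sites the intervals of these families overlapped those of the forkhead genes for every mark. Overlap does not show that shares are equal, and no difference between families was tested. Within 50 kb, all 39 HOX genes had FLI1 and SSRP1 peaks (91.0 to 100 for each). Those intervals lie above the forkhead ones (55.7 to 83.6 and 53.4 to 81.8). HOX genes sit in clusters and share peaks, and they are not independent counts.

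**Figure D1:**
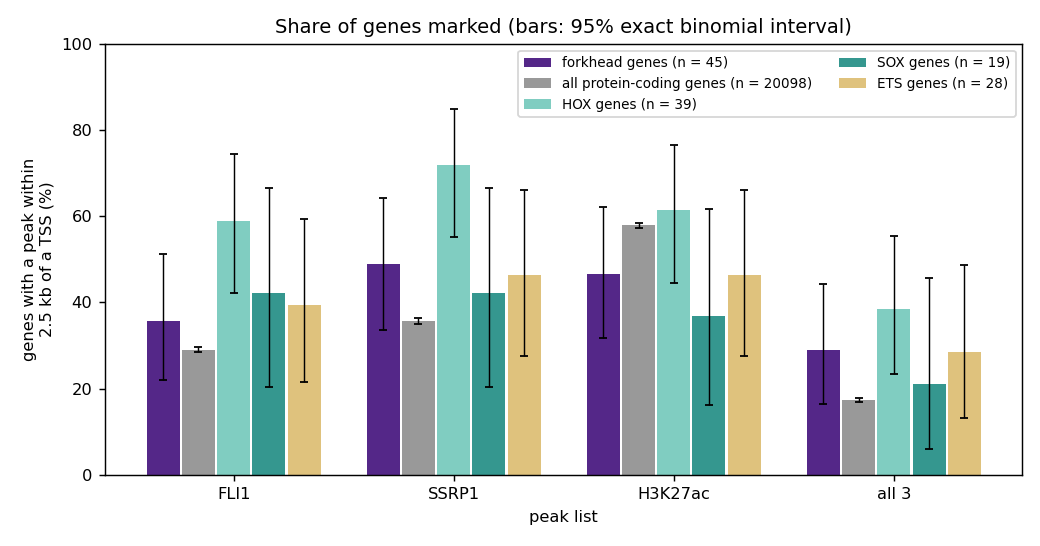
Bars give the percentage of genes with a peak within 2.5 kb of a TSS, for 5 gene sets, in each peak list and in all 3. Whiskers are 95% exact binomial intervals. For the forkhead genes SSRP1 stands at 48.9% against 35.8% of all genes, and H3K27ac at 46.7% against 57.9%.

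All 4 FOXO genes, the arm regulated by insulin and AKT, were acetylated at a start site, against 57.9% of all genes. FLI1 and SSRP1 each lay at 3 of the 4, against 29.0% and 35.8%. FOXO1, a brake on the cell cycle and activator of gluconeogenic genes, carried H3K27ac peaks of 2888 and 682 bp, the first over its TSS. Its SSRP1 peaks of 745, 377 and 285 bp lay 1670 bp and 153 bp into the gene and 492 bp before it. The FLI1 peak of 233 bp lay 1136 bp into the gene, inside the acetylated stretch. Its width was near the lowest value over all genes with FLI1 at a TSS, 227 bp. FLI1 and SSRP1 did not overlap at FOXO1, with 301 bases between the nearest peaks. Another 2 FLI1 peaks, 36015 bp inside intron 1 and 23160 bp upstream, were shared with neither other list.

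FOXO3, which acts on survival, oxidative stress and longevity genes, had the most FLI1 peaks of the FOXO genes. There were 12 within 50 kb, covering 4235 bp, of which 3 (456, 238 and 265 bp) were at a TSS. The first 2 overlapped SSRP1 and lay under an H3K27ac peak of 3808 bp, while the third, 1624 bp into the gene, lay outside both lists. FOXO3 also had a distal site 43123 bp from its nearest TSS, downstream of the gene, at chr6:109020672-109021483, where an 812 bp FLI1 peak met SSRP1 and H3K27ac. Of its 12 FLI1 peaks, 8 overlapped neither SSRP1 nor H3K27ac.

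FOXO6, a FOXO gene known mainly from the brain, had the widest acetylated start site among the forkhead genes, 7573 bp at chr1:41827017-41834589. Inside it lay 3 FLI1 peaks (363, 227 and 738 bp) and SSRP1 peaks of 640 and 1299 bp, and the last peak of each list covered the downstream TSS in intron 1. The canonical TSS of FOXO6 had FLI1 and H3K27ac but no SSRP1 within 2.5 kb. Within 50 kb H3K27ac covered 22360 bp in 11 peaks, or 18.4% of the sequence, above 97.4% of all genes. For all of that acetylated sequence the nearest TSS was that of FOXO6. Along with 9 FLI1 and 10 SSRP1 peaks, it spread from upstream of the gene to beyond its end. FLI1 met both other lists at intron 1 sites 5587 and 12776 bp, and at a downstream site 21073 bp, from the nearest TSS.

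FOXO4 differed from the other FOXO genes by having only a 659 bp H3K27ac peak at its TSS. Its nearest FLI1 and SSRP1 peaks lay 6708 and 6500 bp away. FOXO4 is on chromosome X, where FLI1 peaks were few. Around FOXO4 there were 1.4 FLI1 peaks per Mb within 5 Mb on each side, against a median of 11.8 per Mb over chromosomes. The part of that sparseness in the missing FLI1 peak was not tested.

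**Figure D2:**
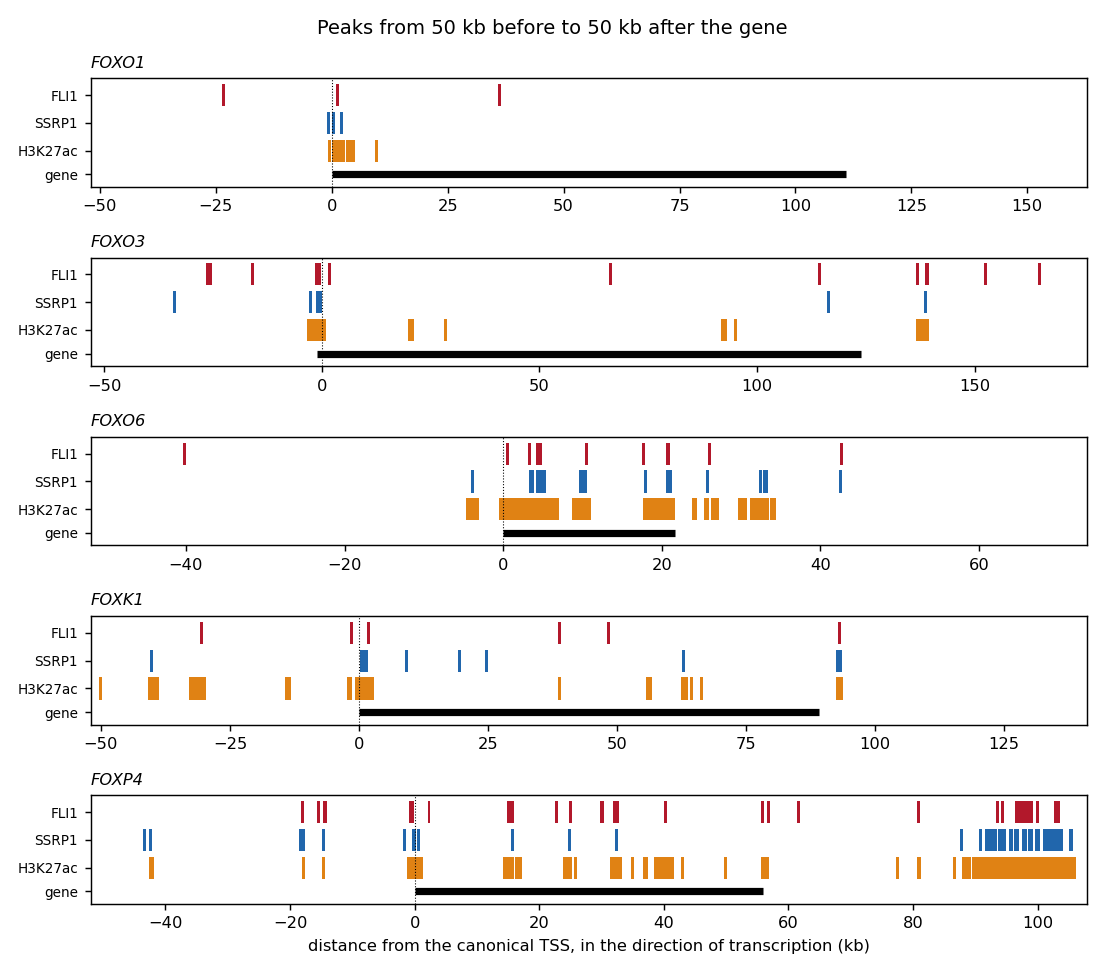
Peaks of the 3 libraries at 5 forkhead genes, as distance in kb from the canonical TSS in the direction of transcription. Black bars are the genes, and peaks narrower than the line width are drawn at a fixed minimum width. At FOXO1 the marks gather at the start site, at FOXO6 they extend through the gene, and right of FOXP4 the dense block lies over MDFI.

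The genes around FOXO were counted from lists made from general knowledge, with earlier results of these data known. Of 26 regulators (receptors, AKT kinases, 14-3-3 proteins and modifying enzymes), H3K27ac lay at 25, SSRP1 at 20 (76.9%, interval 56.4 to 91.0) and FLI1 at 14 (53.8%, 33.4 to 73.4), against 57.9%, 35.8% and 29.0% of all genes. Of all acetylated genes, SSRP1 lay at 54.7% and FLI1 at 42.1%, and only the FLI1 interval includes that share. All 3 lay at 12 (46.2%, against 17.3% of all genes), among them the receptor IGF1R and its adaptors IRS1 and IRS2. IRS2 had the widest peaks on this list, with 1248 bp of FLI1, 5426 bp of SSRP1 and 11427 bp of H3K27ac.

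Of 24 FOXO target genes, FLI1 lay at 8 (33.3%), SSRP1 at 11 (45.8%), H3K27ac at 10 (41.7%) and all 3 at 4 (16.7%, against 17.3% of all genes). The intervals of the first 3 of these shares include the shares of all genes. Those 4 were BCL6, a repressor, CDKN1B, the inhibitor p27, FBXO32, an atrophy ubiquitin ligase, and SOD2, a mitochondrial antioxidant enzyme. SSRP1 without acetylation lay at CDKN1A, which encodes the inhibitor p21, at the apoptosis gene BBC3 and at SESN3, and at KLF2 together with FLI1. No mark lay at 8 of the 24 (33.3%), near the 34.7% of all genes. They were the death genes BCL2L11 and FASLG, the metabolic genes G6PC1, IGFBP1 and PDK4, and KLF4, TRIM63 and TXNIP.

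FOXM1, which works with MYBL2 and the MuvB complex in late cell cycle, carried H3K27ac and SSRP1 and no FLI1. Its acetylated peak of 2559 bp covered the TSS. SSRP1 peaks of 307 and 456 bp lay 51 and 503 bp upstream, both nearer the start of RHNO1, the divergent neighbour, and the nearest FLI1 peak was 31294 bp away. Among 25 partners and targets of FOXM1, H3K27ac lay at all 25 and SSRP1 at 15 (60.0%, interval 38.7 to 78.9), against 57.9% and 35.8% of all genes. The SSRP1 share was near the 54.7% of all acetylated genes. FLI1 lay at 6 (24.0%, 9.36 to 45.1), against 29.0% of all genes. FLI1 was present at LIN9, LIN54 and MYBL2 of the partners, and at NEK2, CCNB1 and CCNB2 of the targets. The mitotic kinase genes AURKA and PLK1 carried acetylation alone.

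All 9 forkhead genes grouped as broadly expressed carried both SSRP1 and H3K27ac, against 35.8% and 57.9% of all genes. FLI1 also lay at 7 of them, against 29.0%. The group was named without expression data and includes FOXP2, whose canonical TSS carried no mark. These genes had a median of 5 annotated TSSs, against 2 for all genes, and each TSS can score a mark. At their canonical TSSs alone, SSRP1 lay at 8, H3K27ac at 8 and FLI1 at 5. The shares of all genes at canonical TSSs were 34.2%, 56.5% and 26.6%. FOXK1 and FOXK2 act on autophagy and glycolysis. At FOXK1 the acetylated peak of 3042 bp over the TSS held SSRP1 peaks of 869 and 512 bp and a FLI1 peak of 290 bp. FOXK2 had H3K27ac (1895 bp) and SSRP1 (432 and 473 bp) and its nearest FLI1 peak was 3095 bp away. FOXJ3 had 1 compact site, in which FLI1 (457 bp) and SSRP1 (899 bp) covered the TSS under 2468 bp of H3K27ac. FOXJ2 was built the same way without FLI1, with SSRP1 of 1088 bp and H3K27ac of 1384 bp.

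FOXN2 had FLI1 (500 bp) and SSRP1 (513 bp) almost on top of each other in intron 1, 546 and 508 bp from the TSS, under 2283 bp of H3K27ac. FOXN3, a checkpoint suppressor, counted as carrying all 3 marks only because it has several promoters. Its FLI1 peak (462 bp) covered the outermost TSS, while its SSRP1 peaks (411 and 325 bp) lay at an internal promoter, with 201372 bases between them.

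FOXP1, needed for B-cell and heart development, had 22 annotated TSSs and 6 H3K27ac peaks at them. Its 1 FLI1 peak, 227 bp at chr3:71632904-71633130, covered the outermost TSS inside 3729 bp of H3K27ac and lay 199 bases from an SSRP1 peak of 303 bp. That was the only FLI1 peak within 50 kb of FOXP1, in a part of chromosome 3 with 1.69 FLI1 peaks per Mb. The width of this peak equals the lowest value over all genes with FLI1 at a TSS. FOXP2, known from speech and language, had FLI1 peaks of 309 and 227 bp, the first under SSRP1 (589 bp), with 2637 and 1096 bp of H3K27ac. These peaks lay at an alternative start, 326810 bp from the canonical TSS of FOXP2, which carried no mark. FOXP4, of lung and nervous system, had FLI1 of 707 bp overlapping SSRP1 of 780 bp at the TSS under 2469 bp of H3K27ac.

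Within 50 kb of FOXP4 lay 22 FLI1 peaks covering 11838 bp, above 99.8% of all genes by share of sequence, with 16150 bp of SSRP1 and 36377 bp of H3K27ac. Of this, the sequence nearest to MDFI or another gene was 6055 bp of FLI1, 11680 bp of SSRP1 and 21253 bp of H3K27ac. Nearest to FOXP4 itself were 12 FLI1 peaks of 5783 bp, 4470 bp of SSRP1 and 15124 bp of H3K27ac, and FOXO3 also had 12 FLI1 peaks nearest to it. Inside introns 1 to 3 of FOXP4 itself, FLI1 met both other lists 14529, 24589 and 32100 bp from the TSS, in peaks of 1151, 282 and 273 bp.

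Of the endoderm pioneer factors, FOXA1 and FOXA3 carried all 3 marks and FOXA2 none, against 17.3% and 34.7% of all genes. At FOXA1, which opens chromatin for oestrogen and androgen receptors, SSRP1 (942 bp) and H3K27ac (1618 bp) covered the TSS and a FLI1 peak of 509 bp lay 14 bp upstream. The FLI1 peak covered a TSS of TTC6, which starts in the same window. At FOXA3, a hepatocyte factor, the FLI1 (461 bp), SSRP1 (560 bp) and H3K27ac (884 bp) peaks lay 1178, 1105 and 1088 bp upstream, all nearest to the start of SYMPK. The marks of these promoters cannot be told apart from those of their neighbours. FOXA2, of notochord and endoderm, had its nearest FLI1 peak 106359 bp away and its nearest H3K27ac peak 764104 bp away.

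In the mesenchymal group of 9, SSRP1 lay at 5, H3K27ac at 2, FLI1 at 1 and no mark at 4, against 35.8%, 57.9%, 29.0% and 34.7% of all genes. FOXD2 was the 1 with all 3, stacked over its TSS: FLI1 of 849 bp (chr1:47903388-47904236), the widest at any forkhead start site, SSRP1 of 1277 bp and H3K27ac of 2006 bp. FOXF2, of palate and gut mesenchyme, had SSRP1 (338 and 675 bp) under 1591 bp of H3K27ac. FOXC1, a gene of eye and skull development, had 3 SSRP1 peaks of 660, 641 and 464 bp between chr6:1608873 and chr6:1612126, at its promoter and coding exon, with no acetylation nearer than 35337 bp. FOXD1, of kidney stroma, and FOXS1 each had a single SSRP1 peak of 282 bp, 2237 and 1006 bp from the TSS. That equals the lowest value over all genes with SSRP1 at a TSS.

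Forkhead genes that lie within 100 kb of each other did not always carry the same marks. FOXE3, a lens gene, sits 19991 bp from FOXD2 and both have the same 5 FLI1 peaks within 50 kb, but none came within 2.5 kb of FOXE3, whose nearest was 10042 bp away. FOXF1, FOXC2 and FOXL1, which pattern gut, lung and lymphatic mesenchyme, form a cluster on chromosome 16. The only peak within 50 kb of those 3 was 508 bp of H3K27ac at the start of MTHFSD. FOXQ1 lies 74817 bp from the marked FOXF2 and had no peak of any list within 50 kb.

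In the neural and neural crest group, FOXD3 alone carried marks, and FOXB1, FOXB2 and FOXD4, for example, had none at a TSS. Of all genes, 34.7% had none. FOXD3, which keeps neural crest cells undifferentiated, had 2 FLI1 peaks (227 and 547 bp), each overlapping 1 SSRP1 peak (473 and 529 bp). One pair lay at the TSS and the other in the coding exon that holds the ETS core. The nearest H3K27ac peak was 4835 bp away. FOXB1, of the hypothalamus, had FLI1 peaks 9894 and 7031 bp upstream and an SSRP1 peak 2983 bp upstream, none of them overlapping.

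In the tissue-restricted group of 13, 9 had no mark at a TSS, against 34.7% of all genes. They included FOXE1 of thyroid, FOXI1 of inner ear and kidney, FOXN1 of thymus and FOXP3 of regulatory T cells. FOXJ1, the regulator of motile cilia, had FLI1 (322 bp, 298 bp upstream) under 1340 bp of H3K27ac, and no SSRP1 nearer than 6281 bp. FOXN4, of retina and spinal cord, had SSRP1 (656 bp) and H3K27ac (1059 bp) over its TSS. FOXL2, of ovary, had FLI1 alone (331 bp, 444 bp upstream), nearest to FOXL2NB. FOXH1, a partner of SMAD proteins in nodal signalling, had 3480 bp of H3K27ac over its TSS. PPP1R16A starts in the same window, so this peak cannot be assigned to FOXH1 alone. Its surroundings held 81.0 FLI1 peaks per Mb, and 25009 of its 28840 acetylated bp within 50 kb lay nearest to other genes. FOXR1 had 16811 acetylated bp within 50 kb, none of it nearest to FOXR1. FOXL3 was placed in no role group and had no mark at its TSS.

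**Figure D3:**
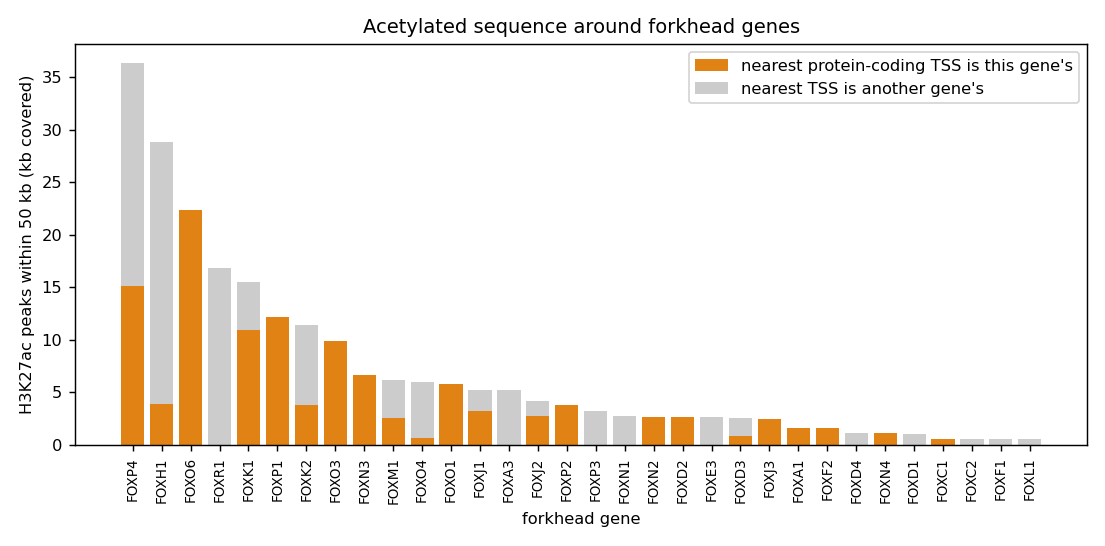
Bars give the kb covered by H3K27ac peaks within 50 kb of each forkhead gene that had any (32 of 45). Orange is sequence whose nearest protein-coding TSS is that gene's and grey is sequence nearest another gene. FOXO6 leads by its own sequence at 22360 bp, while most of the FOXP4 and FOXH1 bars and all of the FOXR1 bar are grey.

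Most acetylated forkhead start sites also carried FLI1 or SSRP1. Of the 21 acetylated genes, SSRP1 lay at 18 (85.7%, interval 63.7 to 97.0) against 54.7% of the 11628 acetylated genes in all. FLI1 lay at 14 (66.7%, 43.0 to 85.4) against 42.1%. Of the 24 without acetylation, SSRP1 lay at 4 (16.7%) against 9.79%, and FLI1 at 2 (8.33%) against 11.0%. The acetylated peaks of forkhead genes were wide, with a median of 2283 bp for the widest peak at a gene, against 1379 bp. When acetylated genes in all were weighted to the same spread of widths, their shares were 67.2% for SSRP1 and 50.9% for FLI1, which both lie inside the intervals of the forkhead genes. The widest FLI1 peak at a gene (median 462 against 353 bp) and the widest SSRP1 peak (622 against 516 bp) were wider at forkhead genes as well. Counted over single peaks the medians were closer. They were 347 bp at forkhead start sites against 330 bp at any start site for FLI1, and 488 against 455 bp for SSRP1.

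**Figure D4:**
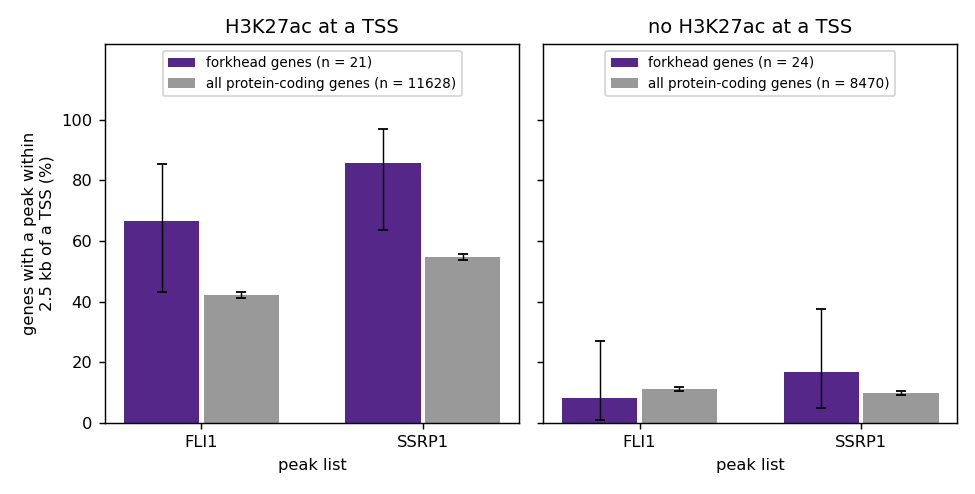
Bars give the percentage of genes with a FLI1 or SSRP1 peak within 2.5 kb of a TSS, for genes with H3K27ac there (left) and without it (right), with 95% exact binomial intervals. Among acetylated genes the forkhead bars are at 66.7% and 85.7%, above those of all genes at 42.1% and 54.7%.

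Forkhead start sites are rich in CpG. Over 5 kb around the canonical TSS, 28 of 45 (62.2%) had a ratio of observed to expected CpG of at least 0.6, against 21.0% of all genes. The median GC content was 57.0% against 49.5%. Among these CpG-rich genes, acetylation was less frequent at forkhead genes, 11 of 28 (39.3%, interval 21.5 to 59.4), than over all such genes, 3376 of 4218. FLI1 lay at 39.3% against 40.0%, and SSRP1 at 50.0% (30.6 to 69.4) against 61.8%. Over all 45 the SSRP1 share lay on the other side, above that of all genes. Neither SSRP1 interval excludes its background share. With CpG counted over 1 kb the SSRP1 share was 20 of 38 (52.6%) against 47.1%, and its direction depends on that window. All 11 that were CpG-rich and acetylated had SSRP1, against 71.0%, and 9 had FLI1 (81.8%, 48.2 to 97.7, against 46.2%). Of the 17 CpG-rich ones without acetylation, 3 had SSRP1 (17.6%, 3.8 to 43.4, against 24.9%), a share whose side of the background also changed with the CpG minimum, to 3 of 10 against 28.8% at 0.75. Of the 19 forkhead genes with no mark at all, 13 were CpG-rich (68.4%, 43.4 to 87.4), against 8.2% of all unmarked genes. That is near the 62.2% of the whole family, and unmarked SOX genes (4 of 7, 57.1%) and HOX genes (3 of 7, 42.9%) were often CpG-rich too.

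Within 50 kb of the gene, FLI1 peaks were present at 32 forkhead genes (71.1%, interval 55.7 to 83.6, against 77.3%), SSRP1 at 31 (68.9%, against 67.2%) and H3K27ac at 32 (71.1%, against 80.7%). No peak of any list lay within 50 kb of 7 (15.6%, against 9.73%). These were FOXA2, FOXB2, FOXI1, FOXI2, FOXI3, FOXQ1 and FOXR2, of which FOXI2 and FOXR2 lie where FLI1 peaks were sparse (1.8 and 1.0 per Mb). The median forkhead gene had 1 other protein-coding gene starting within 50 kb, against 2 for all genes.

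Sharing between the lists was counted over the FLI1 peaks around forkhead genes. Of the 145, 40 were shared with both SSRP1 and H3K27ac (27.6%, interval 20.5 to 35.6), against 15.3% near all genes, where shared means that at least 20% of either peak was covered. Away from start sites the shares were 19.8% (12.5 to 28.9) and 8.03%. For 88 of the 145 the nearest TSS was a forkhead gene's, and of these 20 were shared with both (22.7%, 14.5 to 32.9), an interval that includes 15.3%. The difference also rested on a few loci. Without the peaks near FOXP4, FOXO6 and FOXH1 it was 19 of 104 (18.3%, 11.4 to 27.1), and away from start sites 9.46% (3.89 to 18.5). At start sites, 10 of the 13 forkhead genes with all 3 marks (76.9%) had a FLI1 peak that overlapped both others, against 74.4% of the 3483 such genes, the exceptions being FOXN3, FOXO1 and FOXP1.

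The forkhead core TGTTTAC lay in 9 of the 38 H3K27ac peaks at forkhead start sites (23.7%, interval 11.4 to 40.2), against 9.43% of H3K27ac peaks at any start site. The median widths of these peaks were 1145 and 1037 bp, and the part of width in the share was not tested. The 38 peaks belong to 21 genes, and the interval treats peaks of the same gene as independent. Among the 82 H3K27ac peaks at any start site within 50 kb of forkhead genes, the core lay in 13 (15.9%). In the narrower FLI1 peaks at forkhead start sites (median 347 bp) the core lay in 1 of 24, against 2.3% of FLI1 peaks at any start site. In the SSRP1 peaks (median 488 bp) it lay in 0 of 38, against 3.02%, and the interval reaches 9.25%.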

How the data were processed

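ChIP-seq of FLI1, SSRP1 and H3K27ac in SK-N-MC cells, with an input library, was grouped by sample titles. The authors mapped reads with Bowtie2 (default settings, hg19), per the series' design text, and called peaks against input at a q-value threshold of 0.05 with MACS2, version 2.2.7.1 per the submitters' processing notes. Filters on duplicates or artefact regions are not given in the sources used here. The deposited lists hold peak positions only, called in each library separately, and no peak strength. Lines that repeat an interval were counted once: 38324 FLI1 lines gave 36539 peaks, 23078 SSRP1 lines 19955 and 62198 H3K27ac lines 37271. Default alignment assigns a read with several equal matches to 1 place, which affects duplicated genes such as FOXD4.

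Genes and TSSs of basic transcripts came from GENCODE release 44 mapped to GRCh37, and sequence from the GRCh37 primary assembly. Coordinates are 1-based. The functions were tested on simulated data. Tools were Python 3.11.15 with pysam 0.24.0, pandas 2.3.3, matplotlib 3.10.9, numpy 2.4.6 and scipy 1.17.1. Forkhead genes are named by their marks, and values of some single genes are not reported here. Values in detail went to FOXO1 and FOXM1, genes with all 3 marks, GGAA runs, the 5 with most H3K27ac bp and clusters, and other genes were described after their values were seen. The genes and lists were chosen with earlier results of these data known. With 1 library per target no p-value was computed. Alternatives were other TSS windows, reaches, overlaps, run lengths and CpG minima, canonical TSSs, suffixed symbols, wider peaks and 4 chromosomes left out. Added after the data were seen were CpG-rich genes alone, CpG over 1 kb, width weighting, windows for the pathway lists, and leaving out genes in sparse surroundings, genes sharing a TSS window, or peaks near FOXP4, FOXO6 and FOXH1.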

Additional observations from a re-analysis of the deposited data

How the results depend on the processing

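Of 92 alternative settings over 22 results, 88 kept the share within 1.5 times. In 7 it moved to the other side of the share of all genes. These were SSRP1 (50.0% against 61.8%) and FLI1 (39.3% against 40.0%) at start sites among CpG-rich genes alone, and SSRP1 at CpG-rich start sites with CpG over 1 kb (52.6% against 47.1%). Within reach of the gene they were FLI1 peaks nearest the forkhead gene (53.3% against 52.5%) and SSRP1 within 100 kb (73.3% against 76.1%). The other 2 are among the 4 that moved by more, as follows. FLI1 peaks near forkhead genes shared with both other lists numbered 19 of 145, against 8.1% near all genes, when the overlap had to reach 20% of each peak, and 19 of 104 without peaks near FOXP4, FOXO6 and FOXH1. SSRP1 at CpG-rich start sites without acetylation was 3 of 10 (28.8% over all genes) at a CpG ratio of at least 0.75. FLI1 lay at 5 of 24 FOXO targets (20.8%, against 24.5%) with a TSS window of 1 kb. Forkhead genes with all 3 marks numbered 10 of 45 with windows of 1 kb, against 15.1% of all genes. With canonical TSSs they were 10 of 45 (against 15.8%) and with 5 kb 15 of 45 (against 20.3%). Without genes that share a TSS window they were 11 of 40, against 17.3%. With only peaks at least as wide as the median of their list they were 11 of 45, against 9.92%, and FOXO1 and FOXP1 dropped out. No paired analysis was possible because each target had 1 library. Intervals treat genes as independent, and neighbouring genes share peaks. Without peak strength, a weak and a strong peak count alike.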

Other observations

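The suffixed forkhead symbols were close to unmarked. FOXD4L1 had an SSRP1 peak 1280 bp from its TSS, and FOXD4L2 to FOXD4L6 and FOXO3B had no mark within 2.5 kb. These genes have near-identical copies elsewhere in the genome.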
